A study of Homo sapiens with 6 samples.

Results

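RBM15, RBM15B and SPEN are the human genes of the split ends family, and all 3 were found by symbol among the 12793 rows of a table of RNA levels in HCT15 cells, a line established from a human colorectal cancer. The 3 genes were picked with the contrast between the control and the knockout libraries already known, so their differences are given as a description with no test. The table held 6 libraries, 3 from cells with a control guide (sgctrl, labelled WT) and 3 from cells with a guide against RBM15 (sgRBM15, labelled RBM15 Knockout), the knockout made with CRISPR/Cas9, a nuclease that cuts DNA where a guide RNA directs it. Both groups were grown alike, in RPMI-1640 with serum and antibiotics, and no other allele or treatment is labelled. The labels do not give the guide's position, nor say whether the knockout cells were 1 clone or a pool. They do not say either that replicate libraries were separate cultures, so p-values here measure a spread that may be technical. The study asked what RBM15 does inside colorectal tumour cells. Levels are FPKM, a count of fragments divided by the length of the transcript and the total mapped in that library. They are per length and may be compared between genes, but the read depth behind them is unknown.

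Proteins of this family carry RNA recognition motifs near the amino end and a SPOC domain, which binds partner proteins, at the carboxyl end. RBM15 and RBM15B bring the complex that writes N6-methyladenosine (m6A) to chosen RNAs, and RBM15 is also known as the fusion partner of MRTFA in an infant leukaemia. SPEN is a corepressor: its SPOC domain recruits the NCoR complex with the histone deacetylase HDAC3, and it silences Notch target genes together with RBPJ. All of them bind XIST, the RNA that silences an X chromosome.

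The genes differ in build. RBM15 (ENSG00000162775) spans bases 110338506 to 110346681 of chromosome 1 (GRCh38, plus strand). Its transcript with the longest coding region in GENCODE 29 has 3 exons and 2931 coding bases. RBM15B (ENSG00000259956) spans bases 51391268 to 51397908 of chromosome 3, plus strand, as a single exon with 2670 coding bases and a 3′ UTR of 3839 bases. SPEN (ENSG00000065526) spans bases 15847864 to 15940460 of chromosome 1, plus strand, with 15 exons and 10992 coding bases, a coding length above 99.6% of 11093 tested genes. The paralogs share little exact sequence. The longest identical run was 16 bases between RBM15 and RBM15B, 14 between RBM15 and SPEN and 14 between RBM15B and SPEN, and no pair shared a stretch of 25 bases. Reads were 150 bases long, per the labels.

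The sequences before the starts are shown because RBM15 and SPEN were both higher in the sgRBM15 libraries and RBM15B was not. They come from RefSeq (GRCh38.p14), which matched all 3 genes. Within 250 bases before its RefSeq start RBM15 held 4 CCAAT boxes, the motif bound by NF-Y, each given here on the plus strand with up to 10 bases on either side and the box in capitals.
RBM15, chr1:110339160-110339184: gactttttgtCCAATcaacacctca
RBM15, chr1:110339260-110339284: acaaatgtaaCCAATgaggtactcc
RBM15, chr1:110339293-110339317: ggttgggaacCCAATaacagtggtt
RBM15, chr1:110339362-110339376: aataattttcCCAAT
A longer RBM15 transcript in GENCODE starts further upstream, so that these boxes lie in its 5′ UTR, and the antisense gene RBM15-AS1 begins at 110339171, within the first of the stretches shown. RBM15B and SPEN held 0 CCAAT boxes in the same window. The bases of those genes that precede both the RefSeq and the GENCODE start are given on the plus strand. Whole GC boxes (GGGCGG on either strand) and the E-box CACGTG are in capitals.
RBM15B, chr3:51391035-51391267: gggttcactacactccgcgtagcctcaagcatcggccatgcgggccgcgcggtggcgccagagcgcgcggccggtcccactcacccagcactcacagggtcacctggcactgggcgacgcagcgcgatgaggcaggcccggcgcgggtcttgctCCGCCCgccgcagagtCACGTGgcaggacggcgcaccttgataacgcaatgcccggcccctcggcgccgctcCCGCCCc
SPEN, chr1:15847457-15847706: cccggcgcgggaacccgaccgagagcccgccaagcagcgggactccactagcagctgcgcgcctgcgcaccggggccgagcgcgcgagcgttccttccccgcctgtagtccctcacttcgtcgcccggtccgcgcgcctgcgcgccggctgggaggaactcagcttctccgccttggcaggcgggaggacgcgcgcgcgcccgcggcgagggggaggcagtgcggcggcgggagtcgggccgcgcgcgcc

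Counted on both strands over the 250 bases before 35116 RefSeq starts, CCAAT was present in 32.0% and present at least 4 times in 0.874%. The E-box CACGTG was found once each before RBM15 and RBM15B and not before SPEN, against 6.35% of all starts. GC boxes numbered 2 before RBM15, 3 before RBM15B, where a pair shares a base, and 0 before SPEN, and 42.6% of starts had at least 1. The last box before RBM15B runs past the end of the stretch shown and is not marked there. TATAAA was found before none of the 3 genes and before 10.7% of all starts. The RBM15 window was 51.6% G and C with 13 CpG, RBM15B 74.8% with 35 and SPEN 78.4% with 44, where the median start had 58.0% and 11. The motifs were chosen after these sequences were seen, and a match is only a match of letters.

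**Figure D1:**
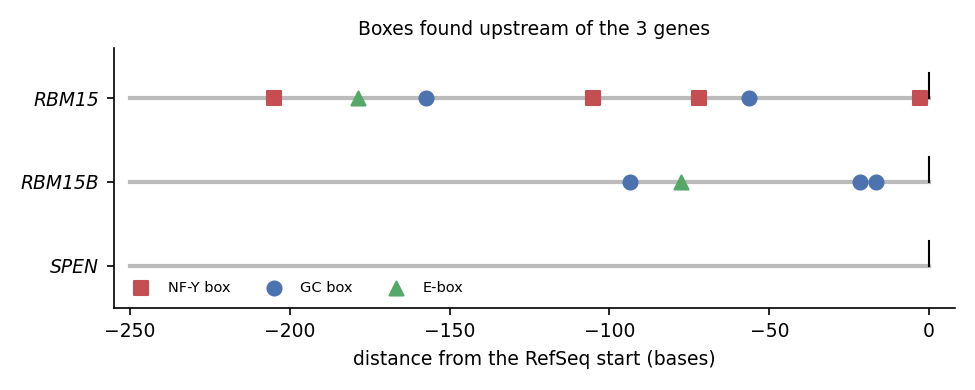
Positions of motif matches in the 250 bases before the RefSeq start of each gene (x axis: distance from the start in bases; squares: CCAAT, the NF-Y box; circles: GC box; triangles: E-box; the upright line marks the start). RBM15 has 4 squares, and SPEN has no match to any of these motifs.

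RBM15, the targeted gene, was higher in the libraries labelled knockout. It stood at 5.97, 5.89 and 5.51 FPKM in sgctrl libraries 1 to 3 and at 17.3, 18.5 and 18.03 FPKM in sgRBM15 libraries 1 to 3. Every sgRBM15 library lay above every control, with a wide gap between the groups. The means of 5.79 ± 0.242 and 17.9 ± 0.615 FPKM (SD, n = 3) gave a ratio of 3.1, and the difference on the log2(FPKM + 1) scale was 1.48 (SE 0.049). It ranked 17 from the top among 11451 tested genes. In the controls RBM15 lay between the 32.8 and 34.7 percentile of all rows, in the sgRBM15 libraries between the 64.6 and 66.6 percentile. The mRNA level does not check the label, since a cut by Cas9 can leave the transcript in place, and directions below rest on the labels. The cause of the higher RBM15 level was not tested.

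SPEN, the corepressor, was also higher in the sgRBM15 libraries. It measured 6.63, 6.80 and 6.60 FPKM in the 3 controls and 9.11, 9.75 and 10.01 FPKM in the sgRBM15 libraries. The groups did not overlap, and the controls lay closer together than the sgRBM15 libraries. Means were 6.68 ± 0.111 and 9.62 ± 0.466 FPKM (SD, n = 3), a ratio of 1.44 and a log2(FPKM + 1) difference of 0.47 (SE 0.051). SPEN ranked 574 from the top.

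RBM15B, the closest paralog of RBM15, was at a similar level in both groups. Its controls read 18.2, 18.5 and 21.7 FPKM and its sgRBM15 libraries 19.8, 19.9 and 19.5 FPKM. All 3 sgRBM15 values fell inside the range of the controls, which control library 3 widened. The means of 19.5 ± 1.95 and 19.7 ± 0.183 FPKM (SD, n = 3) differed by 0.02 on the log2(FPKM + 1) scale (SE 0.067). Without control library 3 that difference was 0.10, and without control library 1 it was -0.02, so its sign and size depended on single libraries.

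**Figure D2:**
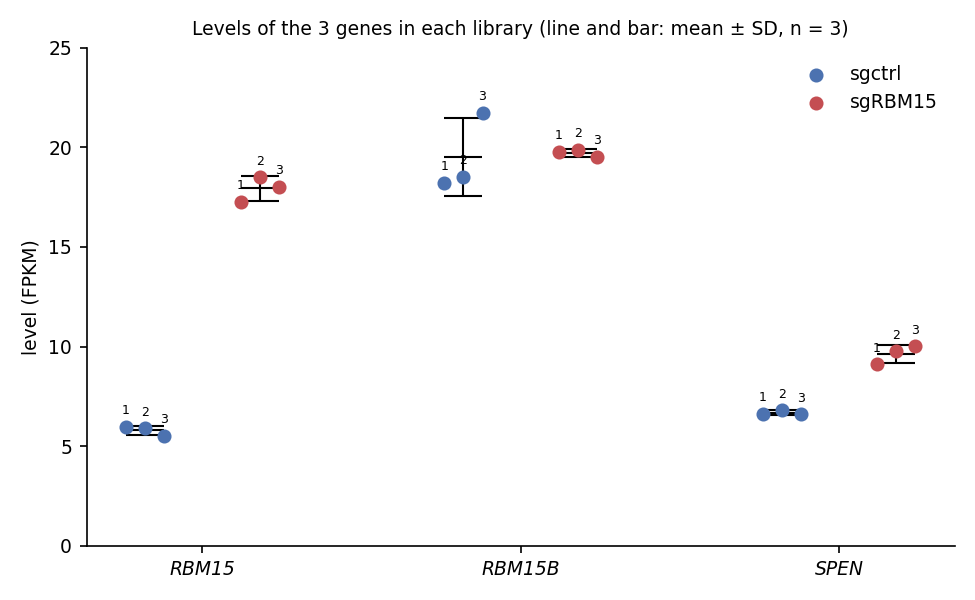
Level in FPKM (y axis) of RBM15, RBM15B and SPEN in each sgctrl (blue) and sgRBM15 (red) library, numbered by replicate, with lines at the mean and the mean ± SD of 3 libraries. RBM15 stands near 5.79 FPKM in the control group and 17.9 FPKM in the sgRBM15 libraries, close to RBM15B there, while SPEN goes from 6.68 to 9.62 FPKM.

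Over all tested genes 54.5% passed an adjusted p of 0.05 (limma with Benjamini-Hochberg adjustment), 25.3% as higher and 29.2% as lower, and 63.0% had groups that did not overlap. Among the 3 family genes the groups of RBM15 and SPEN did not overlap, and nothing is read from this because the genes were chosen on this contrast. The median difference of all genes was -0.018 on the log2(FPKM + 1) scale.

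**Figure D3:**
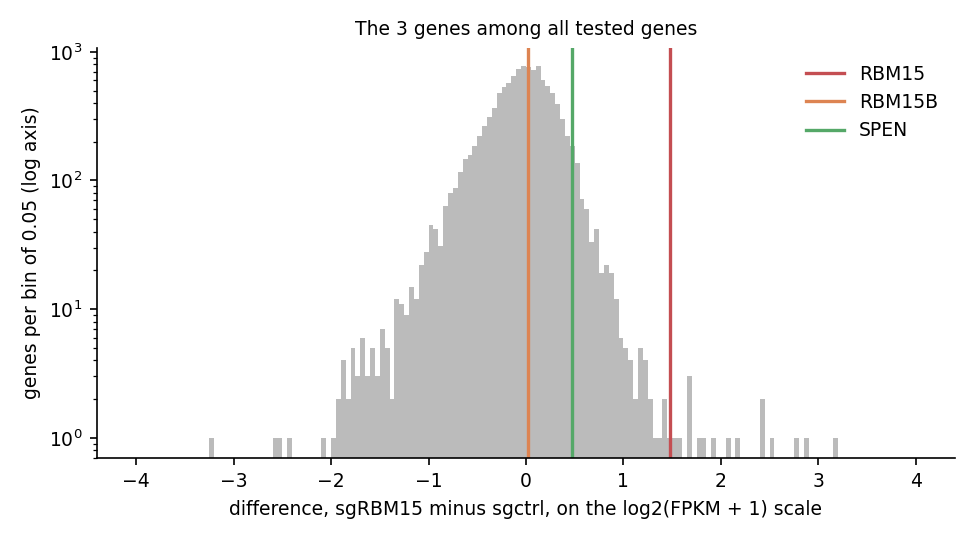
Differences between the groups for 11451 tested genes (x axis: sgRBM15 minus sgctrl on the log2(FPKM + 1) scale; y axis: genes per bin of 0.05, log axis), with lines at the 3 family genes. RBM15 (1.48) lies in the sparse upper tail, SPEN (0.47) on the upper shoulder and RBM15B (0.02) at the centre.

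The order of the 3 levels changed with the group. In every control library RBM15B was the most abundant, SPEN next and RBM15 the least, and the ranges of SPEN (6.60 to 6.80 FPKM) and RBM15 (5.51 to 5.97 FPKM) did not meet. In every sgRBM15 library the order was RBM15B, RBM15, SPEN. There RBM15B (19.5 to 19.9 FPKM) and RBM15 (17.3 to 18.5 FPKM) were close but still apart. Thus RBM15 was 0.867 ± 0.0321 times SPEN in the controls and 1.87 ± 0.0553 times SPEN in the sgRBM15 libraries (SD, n = 3). RBM15B was 3.38 ± 0.490 times RBM15 in the controls and 1.10 ± 0.0382 times RBM15 in the sgRBM15 libraries.

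Because FPKM are per length, the paralogs can be added. Both overlap a gene on the other strand, as described below, and the effect of this on the sums was not tested. RBM15 supplied 24.7%, 24.1% and 20.2% of the summed RBM15 and RBM15B level in the controls and 46.6%, 48.2% and 48.02% in the sgRBM15 libraries. The lowest share was that of control library 3, where RBM15B was highest. The sum of the paralogs was 25.3 ± 1.71 FPKM in the controls against 37.7 ± 0.666 FPKM in the sgRBM15 libraries. The sum over all 3 family genes was 32.0 ± 1.65 and 47.3 ± 1.01 FPKM.

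The genomic surroundings of the 3 genes were mixed. By position, 9 genes of the table lay within 100000 bases, 7 of which were tested, and 2 rose and 1 fell (limma, adjusted over all genes; 54.5% of all genes changed). Without sgRBM15 library 3 the number changed was 5. Upstream of RBM15, the potassium channel gene KCNC4 rose from 1.06 ± 0.200 to 1.91 ± 0.0998 FPKM (log2 difference 0.50, adjusted p = 0.00387), at a low level. Downstream, LAMTOR5, a subunit of the lysosomal Ragulator complex, stood at 117 ± 2.98 and 118 ± 2.83 FPKM (adjusted p = 0.786). SLC16A4, a gene of the monocarboxylate transporter family that lies between RBM15 and LAMTOR5, was below the filter with 0.728 ± 0.160 and 1.08 ± 0.297 FPKM. RBM15-AS1, which overlaps 666 bases of RBM15 on the other strand, is not analysed here. No source used here states a strand setting, so reads of RBM15 and its antisense gene cannot be told apart.

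Beside SPEN, the filamin-binding gene FBLIM1 fell from 2.03 ± 0.0551 to 0.991 ± 0.143 FPKM (log2 difference -0.61, adjusted p = 0.000995). ZBTB17, which encodes the MYC partner MIZ1 and lies 1408 bases beyond the 3′ end of SPEN, stood at 7.78 ± 0.383 and 7.72 ± 0.174 FPKM (adjusted p = 0.882). UQCRHL, a near copy of the complex III gene UQCRH whose reads it may share, did not pass (6.11 ± 0.243 and 7.48 ± 1.21 FPKM, adjusted p = 0.082). It passed without sgRBM15 library 3 (difference 0.36, adjusted p = 0.00892). The 5′ end of SPEN overlaps the antisense gene FLJ37453 by 284 bases, with the same limit on strand.

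RBM15B shares 2042 bases at its 3′ end with DCAF1, the substrate receptor of a ubiquitin ligase, which runs on the other strand. DCAF1 read 14.9, 14.6 and 12.6 FPKM in the control group and 18.1, 18.4 and 17.5 FPKM in the sgRBM15 libraries. Its groups did not overlap, and it rose by 0.34 on the log2(FPKM + 1) scale (SE 0.066, limma adjusted p = 0.00445). Control library 3 had the highest RBM15B and the lowest DCAF1 of all 6 libraries. The sum of both genes was 33.1, 33.1 and 34.3 FPKM in the controls and 37.9, 38.3 and 37.0 FPKM in the sgRBM15 libraries. The part of the shared bases in the RBM15B values was not tested. MANF, which encodes a secreted factor of the endoplasmic reticulum and ends 1870 bases before RBM15B, stood at 128 ± 5.12 and 137 ± 5.74 FPKM (adjusted p = 0.0807) and passed without sgRBM15 library 3 (adjusted p = 0.0453), on the TPM scale (0.0241) and with median centring (0.0426). The neuronal exchange factor gene DOCK3 was near 0, at 0.143 ± 0.0253 and 0.0958 ± 0.0443 FPKM.

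**Figure D4:**
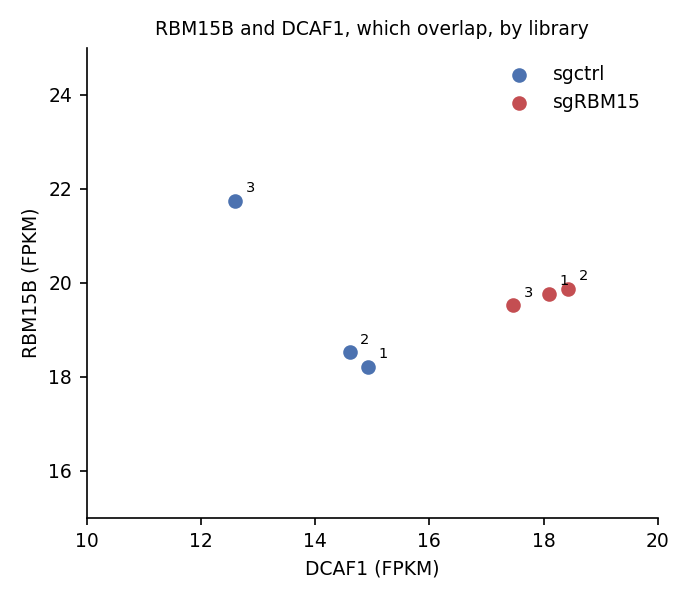
RBM15B (y axis, FPKM, from 15) against DCAF1 (x axis, FPKM, from 10), whose 3′ ends overlap, in each sgctrl (blue) and sgRBM15 (red) library, numbered by replicate. Control library 3 stands alone at 21.7 FPKM of RBM15B and 12.6 FPKM of DCAF1.

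The genes whose pattern was most like that of each family gene were ranked by Pearson r of log2(FPKM + 1) over the 6 libraries, among 2240 named genes that varied by at least 0.5. For RBM15 these were ISG20L2, FEN1, WDR77, PAQR4 and DKK1, with r from 0.9990 to 0.9997. Such r mostly restates that both groups were tight and apart. ISG20L2, a nuclease of ribosome maturation, went from 15.7 to 27.9 FPKM, and FEN1, the flap endonuclease of DNA replication, from 48.6 to 79.7 FPKM. WDR77, a partner of the arginine methyltransferase PRMT5, went from 28.1 to 40.8 FPKM. For SPEN they were SLC25A51, LIN54, SLC2A1, ZNFX1 and DDIAS, with r from 0.9974 to 0.9984. There SLC25A51, the mitochondrial NAD carrier, had 5.84 and 9.69 FPKM, and LIN54, the DNA-binding part of the DREAM complex, 8.92 and 13.6 FPKM.

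For RBM15B the closest genes were EXOG (r = 0.95), LENG1 (0.94), RPL14 (0.92), PNPLA4 (0.89) and BCL2L2-PABPN1 (0.87), none of which passed the test (limma). RPL14 (adjusted p = 0.0306) and BCL2L2-PABPN1 (0.0165) passed without control library 3. All 5 were highest or second highest in control library 3. EXOG, a mitochondrial nuclease, read 5.23, 5.60 and 9.53 FPKM in the control group and between 6.13 and 7.24 FPKM in the sgRBM15 libraries. RPL14, a ribosomal protein gene with many copies in the genome, read 226 FPKM in control library 3 and 97.3 and 104 FPKM in the other controls. BCL2L2-PABPN1 is a read-through of overlapping genes.

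Outside the family, SPOC domains occur in PHF3, DIDO1 and SPOCD1. DIDO1, a reader of histone H3 methylation, rose from 15.3 ± 0.773 to 21.8 ± 1.34 FPKM (n = 3, log2 difference 0.48, SE 0.058, limma adjusted p = 0.000549), close in size to SPEN. PHF3, which binds the tail of RNA polymerase II through its SPOC domain, stood at 16.7 ± 1.93 and 17.2 ± 1.36 FPKM (adjusted p = 0.674). SPOCD1, known from the silencing of transposons in germ cells, was below the filter at 0.629 ± 0.195 and 0.454 ± 0.177 FPKM.

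Of the 6 core partners of RBM15 in the m6A writer complex, 4 rose and 0 fell, where 25.3% of all genes rose and 29.2% fell. Their median log2 difference was 0.26 against -0.018 for all genes. ZC3H13, which is known to tie RBM15 to WTAP, rose from 11.3 ± 0.539 to 15.2 ± 0.420 FPKM (adjusted p = 0.00053). The catalytic subunit gene METTL3 rose from 28.4 ± 0.593 to 35.6 ± 1.52 FPKM (adjusted p = 0.000827). The ubiquitin ligase gene CBLL1 (0.26 on the log2 scale) and the scaffold gene VIRMA (0.26) rose as well. WTAP, the adaptor, stood at 51.9 ± 1.17 and 52.0 ± 1.11 FPKM (adjusted p = 0.95), and METTL14 at 5.33 ± 0.770 and 6.51 ± 0.568 FPKM (adjusted p = 0.0718). METTL14 passed without control library 2 (0.0201), with median centring (0.0486) and with quantile normalization (0.0401).

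Among 9 other proteins known to bind or modify RBM15 or RBM15B, 5 rose and 1 fell (median log2 difference 0.15). Over all genes 25.3% rose and 29.2% fell. SF3B1, a core splicing factor, rose from 34.3 ± 1.63 to 47.2 ± 0.738 FPKM (adjusted p = 0.00018). MRTFA, the actin-regulated coactivator, rose from 4.66 ± 0.303 to 5.96 ± 0.183 FPKM (adjusted p = 0.00528). The histone H3K4 methyltransferase gene SETD1B fell from 9.66 ± 0.198 to 7.76 ± 0.238 FPKM (adjusted p = 0.00192). NXF1, the mRNA export receptor, rose from 24.6 ± 2.96 to 30.2 ± 2.05 FPKM (adjusted p = 0.0286), a call lost without control library 1 (adjusted p = 0.0664), control library 2 (0.0674), sgRBM15 library 1 (0.0732) or sgRBM15 library 3 (0.0878). PRMT1, which methylates RBM15 and so marks it for decay, and CNOT4, the ubiquitin ligase of that step, rose by 0.10 (adjusted p = 0.0309) and 0.18 (0.0354) on the log2 scale. PRMT1 lost its call without control library 1 (0.0894) or 2 (0.0634), without sgRBM15 library 1 (0.0948) or 2 (0.0812), and without a variance trend (0.0799). CNOT4 lost it without any one library (0.0575 to 0.094) but control library 3.

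The corepressor complex that SPEN recruits showed no shared direction: of 6 genes 2 rose and 2 fell (median log2 difference -0.10). The shares over all genes were 25.3% higher and 29.2% lower. The large scaffold gene NCOR1 did not pass, at 17.7 ± 1.05 and 16.6 ± 0.495 FPKM (adjusted p = 0.217). TBL1X, a WD40 subunit, fell from 9.12 ± 0.876 to 6.86 ± 0.460 FPKM (adjusted p = 0.00652), and its relative TBL1XR1 from 21.1 ± 0.820 to 18.3 ± 0.922 FPKM (adjusted p = 0.0137). GPS2, a small subunit of the complex, rose from 32.3 ± 0.370 to 37.0 ± 0.614 FPKM (adjusted p = 0.00213). HDAC3, the deacetylase, rose by 0.11 on the log2 scale (adjusted p = 0.0379). That call was lost without any one of control libraries 1 (0.0685), 2 (0.114) and 3 (0.0545) or sgRBM15 libraries 2 (0.106) and 3 (0.0925), and without a variance trend (0.0611).

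RBPJ, the DNA-binding partner of SPEN at Notch targets, stood at 21.9 ± 0.643 and 23.4 ± 1.01 FPKM (adjusted p = 0.129). Of the 7 tested genes of RBPJ and its corepressors 1 fell and 0 rose (median log2 difference -0.044), against 29.2% and 25.3% of all genes. That gene was CIR1, another corepressor that binds RBPJ, which went from 14.8 ± 2.46 to 9.25 ± 1.18 FPKM (adjusted p = 0.00496). The count of 0 higher genes depended on the fit, since RITA1, also of this list, narrowly missed the threshold (difference 0.18, adjusted p = 0.0529). RITA1 passed as higher without sgRBM15 library 3 (0.00346) and with a replicate block (0.0455), quantile normalization (0.0386) or median centring (0.039). TPM values (0.0286) and the stricter level filter (0.0484) also brought RITA1 below 0.05, and the remaining alternatives did not. Of 8 Notch target genes 4 were tested, and 3 fell and 0 rose (median log2 difference -0.40), where 29.2% of all genes fell. HES1 fell from 4.90 ± 0.677 to 2.47 ± 0.189 FPKM (adjusted p = 0.000666) and HES4, another repressor of the same class, from 23.6 ± 1.27 to 16.5 ± 0.759 FPKM (adjusted p = 0.000339). The receptor gene NOTCH3 fell by 0.30 on the log2 scale (adjusted p = 0.0201), a call lost without control library 3 (0.0668), sgRBM15 library 1 (0.0622) or sgRBM15 library 3 (0.056), and with quantile normalization (0.136). NRARP, a feedback inhibitor of Notch, stood at 7.86 ± 0.849 and 8.75 ± 1.11 FPKM (adjusted p = 0.282).

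Other proteins that bind XIST are nuclear RNA-binding proteins with wider roles. Of 7 tested genes 4 rose and 1 fell (median log2 difference 0.23), where 25.3% of all genes rose and 29.2% fell. CELF1 rose by 0.44, the splicing regulator gene TARDBP by 0.44 and PTBP1 by 0.29 on the log2 scale, while CIZ1, which anchors XIST in the nucleus, fell by 0.23. LBR, the lamin B receptor, stood at 70.6 ± 1.26 and 69.5 ± 1.14 FPKM (adjusted p = 0.561). MATR3 was listed on 2 overlapping rows whose division of reads is uncertain, so it was left out of the count. Of 4 blood cell transcripts whose splicing RBM15 is known to shape, RUNX1 alone was tested, at 6.28 ± 0.277 and 5.43 ± 0.413 FPKM (adjusted p = 0.05). It lost its call with no filter (0.0567), with a filter at 5 FPKM (0.0502), under the TPM scale (0.0682), median centring (0.0927) or quantile normalization (0.138), and without any one library but sgRBM15 library 2 (0.0747 to 0.143).

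In all, 25 of 42 tested genes of the 8 lists changed, 59.5% against 54.5% of all genes, 16 of them higher and 9 lower. Called partner lists and partner genes below for short, they also take in the other SPOC genes, the Notch target genes and RUNX1.

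**Figure D5:**
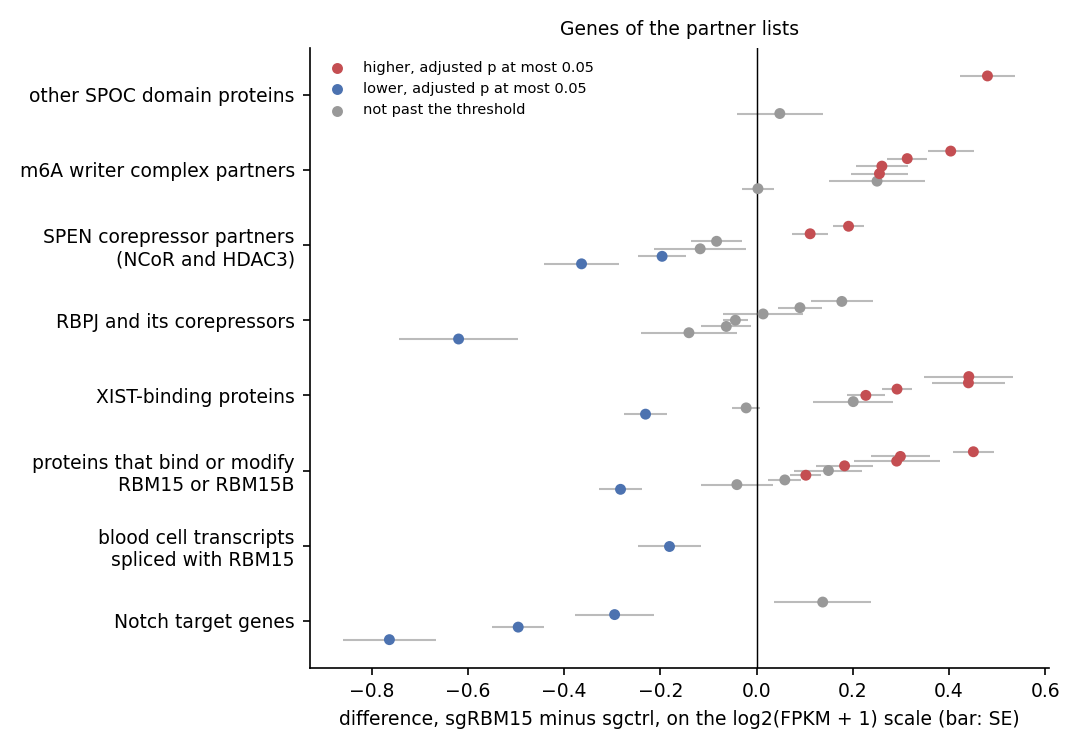
Differences of the tested genes of the 8 partner lists (x axis: sgRBM15 minus sgctrl on the log2(FPKM + 1) scale, bars are the SE; red: higher, blue: lower, grey: not past the adjusted p of 0.05). The m6A writer partners lie at or above 0, from 0.00 to 0.40, and the corepressor partners of SPEN lie on both sides, from -0.36 to 0.19.

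The 6 libraries were alike in scale. Their listed rows summed to between 402288 and 415057 FPKM, and log2 levels correlated across genes at 0.990 to 0.992 within groups and 0.969 to 0.972 between them. Of 10 markers of colorectal epithelium 8 were in the table. Their summed levels were 4119 to 4200 FPKM in the sgctrl libraries and 3667 to 3813 FPKM in the sgRBM15 libraries. Of the 8 markers 6 fell, where 29.2% of all genes fell. From sgctrl to sgRBM15 the mean of VIL1 went from 17.0 to 3.87 FPKM, CDX2 from 20.9 to 9.52 FPKM and EPCAM from 528 to 415 FPKM. CDH1 did not pass (adjusted p = 0.154). KRT8 rose by 0.11 on the log2 scale (adjusted p = 0.0307), a call lost without a variance trend (0.0833) and without any one library (0.0578 to 0.0863) but sgRBM15 library 3. CDX1 and CEACAM5 are not analysed here. Of 6 fibroblast markers COL1A1 was listed, at 0.835 to 1.41 FPKM, and of 5 leukocyte markers CD68, at 2.66 to 3.08 FPKM in the sgctrl and 6.03 to 7.29 FPKM in the sgRBM15 libraries. CD68 rose (limma adjusted p = 0.000116), where 25.3% of all genes rose, and no cell type is read from a lone marker. The defining leukocyte gene PTPRC and the 3 endothelial markers were not found by symbol and are not analysed here. The part of these differences in the family values was not tested. Fewer cells of a type and less RNA per cell cannot be told apart in such bulk libraries.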

How the data were processed

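Per the labels' protocols, RNA was taken with TRIzol and made into libraries with a VAHTS Universal V6 kit for paired-end sequencing of 150 bases. Per the submitters' processing notes, the tools were StringTie 2.0.4 and HISAT2 2.2.1 on hg38. The authors deposited FPKM per library, per the file headers. No source used here states the annotation, strand setting or row filter. Depth is unknown, so precision rests on 3 libraries per group. From these values log2(FPKM + 1) was computed for the 11451 genes whose mean reached 1 FPKM. The 2 groups were fitted with limma 3.58.1 (R 4.3.3) and a variance trend, with 2-sided p-values adjusted by Benjamini-Hochberg over all tested genes (threshold 0.05). The fit was also run on simulated data with independent noise in each library. Such data cannot show whether the real libraries shared a culture or batch. Transcripts and positions are from GENCODE 29, and promoters from RefSeq. Protein sequences were not used here. The members and lists were chosen with earlier results of these data known. The rule for named genes took the 3 genes, the other SPOC genes, listed neighbours within 100000 bases, up to 4 changed genes per list with the largest difference (the 2 most abundant where none changed), and the 5 genes most like each member among genes with a mean of 5 FPKM or more. Other genes of the lists and PTPRC, VIL1, CDX2, EPCAM, CDH1, KRT8 and CD68 were named after their values were seen. Another gene of the lists was left out and is not reported here, and genes of the lists that the text does not name enter only the counts. Alternatives were leaving out each library, a replicate block, no variance trend, quantile normalization, median centring, rescaling to equal sums (TPM scale), a filter at 5 FPKM or none, and a pseudocount of 0.1. Summaries were made in Python 3.11.15 with numpy 2.4.6 and pandas 2.3.3, and plots with matplotlib 3.10.9.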

Additional observations from a re-analysis of the deposited data

How the results depend on the processing

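With a pseudocount of 0.1 the log2 difference of RBM15 was 1.61 and that of SPEN 0.52, and on the TPM scale they were 1.59 and 0.52. The direction was that of the values reported, and the cause was not tested. Leaving out each library in turn gave 1.45 to 1.51 for RBM15, 0.44 to 0.50 for SPEN, -0.02 to 0.10 for RBM15B and a rise of 23.2 to 25.4 percentage points in the RBM15 share of the paralogs. It also gave 5439 to 5663 changed genes, 20 to 23 changed partner genes and 3 to 5 changed neighbours, the 5 without sgRBM15 library 3. A filter at a mean of 5 FPKM left 1 changed neighbour, since KCNC4 and FBLIM1 lie below it, and the TPM scale and median centring gave 4, with MANF added. With a replicate block 5782 genes, 24 partner genes and 3 neighbours changed, and HDAC3 (adjusted p = 0.0791), PRMT1 (0.0766) and RUNX1 (0.0533) lost their calls, while HNRNPU (0.0323) and RITA1 (0.0455) passed. Same-numbered libraries did not deviate together (correlations of -0.0354, -0.0367 and 4.54e-05), and no library correlated best with its own number. With so few libraries per group this cannot show whether they shared a culture or batch, which the labels do not say. Of 74 tested genes of the lists, neighbours, markers and similar genes, 58 kept their side of the threshold in every alternative that gave them a value.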

Other observations

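The coding regions of the 3 genes were searched for GGACT, the DNA form of the sequence most often methylated by the m6A writer complex. RBM15 held 3 copies, RBM15B 4 and SPEN 9. Per kilobase of coding sequence this was 1.02, 1.5 and 0.819, against a median of 0.969 over 11093 tested genes, so that the genes lay at the 52.5, 70.5 and 43.4 percentile. The coding region of RBM15B was 65.2% G and C, above 92.5% of tested genes, and those of RBM15 (56.6%) and SPEN (51.9%) were nearer the median of 52.3%. MATR3, the XIST-binding gene listed on 2 overlapping rows, read 70.05, 30.6 and 12.4 FPKM in the controls on ENSG00000015479 and 41.8, 97.8 and 104 FPKM on ENSG00000280987, so that one row was high where the other was low. In the sgRBM15 libraries ENSG00000015479 read 19.9, 5.80 and 11.9 FPKM. There ENSG00000280987 read 133, 129 and 135 FPKM, above every control, and the cause was not tested.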
